A study of Mus musculus with 9 samples.

Results

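Naive and memory transcription factors are the nuclear proteins that keep a CD8 T cell quiescent, long-lived and able to recirculate. The 10 genes described here (Tcf7, Lef1, Bach2, Satb1, Id3, Foxo1, Foxo3, Foxp1, Ets1 and Myb) were chosen by name. The choice was made with earlier results of these data known. All 10 were found among the 24060 genes of the deposited expression table. Their RNA was measured after activation by the ROP7 peptide in CD8 T cells of 3 clones, named R7-I, R7-II and R7-III, with 3 biological replicate libraries per clone. Levels are in TPM, a unit that corrects for transcript length and gives each library an equal total. All 10 passed the filter used for testing, a maximum above 1 TPM over the libraries, which left 11330 genes.

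The clones came from transnuclear mice, made by transferring the nucleus of a single Toxoplasma-specific CD8 T cell, so each line carries the rearranged receptor of 1 founder cell. All lines were Rag2-proficient and on the BALB/c background, and clone and mouse line cannot be told apart in this design. The labels rank affinity for the ROP7 peptide as R7-I, then R7-III, then R7-II, and self-reactivity as R7-III, then R7-I, then R7-II. Splenocytes of each line were kept overnight in medium with IL-2 at 10 ng/ml and the ROP7 peptide at 10 µM, and CD3+ CD8+ cells binding the H-2Ld-ROP7 tetramer were then sorted. Every group had received peptide, and unstimulated cells were not analysed here, so a higher level in a clone is a difference between activated clones and not a measured loss or gain on activation. The sources used here do not give the number of mice behind a library, and p-values measure the spread between these libraries.

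TCF-1 (encoded by Tcf7) and LEF-1 are related DNA-binding proteins that work with beta-catenin and with corepressors of the Groucho family, and TCF-1 marks naive, memory and stem-like CD8 T cells. FOXO1 and FOXO3 are forkhead factors that are pushed out of the nucleus when receptor signals activate the kinase Akt, and FOXO1 drives genes of lymph node homing and survival. BACH2 restrains effector genes at AP-1 sites, Id3 blocks E proteins, FOXP1 maintains quiescence of naive cells, and ETS1, MYB and SATB1 act in T cell development and homeostasis. Strong receptor stimulation is known to lower many of these RNAs as cells become effectors.

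The lowest affinity clone R7-II held the highest level of every one of the 10 genes. In R7-II the lowest of 3 libraries was above the highest of the other 6 libraries for 10 of 10 genes, against a background of 41.7% of all genes tested. With limma, 9 of 10 passed as higher when R7-II was set against R7-I and 9 of 10 when it was set against R7-III, and 0 passed as lower in either at an adjusted p of 0.01 (0 lower also at an unadjusted p under 0.05). Both comparisons use the same R7-II libraries. The background shares of all genes tested that were called higher were 40.6% and 35.6%, and the shares called in either direction were 56.1% and 53.6%. The genes that did not pass were Satb1 against R7-I and Bach2 against R7-III, so that 8 genes passed in both comparisons, as did 31.9% of all genes tested. Over the 10 genes the median log2 fold change was 0.87 for the first comparison and 0.75 for the second, where the medians over all genes tested were 0.17 and 0.12.

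The size of a difference depends on how libraries are scaled to each other. Dividing each library by a median-of-ratios factor, computed from the genes detected in all libraries, lowered the log2 fold change of a gene by 0.18 against R7-I and by 0.13 against R7-III in the median over all genes tested. After this scaling 8 of 10 genes were still called higher in the first comparison and 9 of 10 in the second, where the shares of all genes tested called higher fell to 25.2% and 25.0%. R7-II stayed above all 6 other libraries for 8 of 10 genes (all but Bach2 and Satb1), against 28.6% of all genes tested. Ordered by the lesser of both log2 fold changes, Tcf7 came first with 1.38, then Ets1, Myb, Lef1, Foxo1, Id3 and Foxo3, and Satb1, Foxp1 and Bach2 came last, down to 0.18 for Bach2. After the scaling the first 7 kept this order, from 1.22 for Tcf7 to 0.42 for Foxo3, and the last 3 were at or below 0.12.

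**Figure D1:**
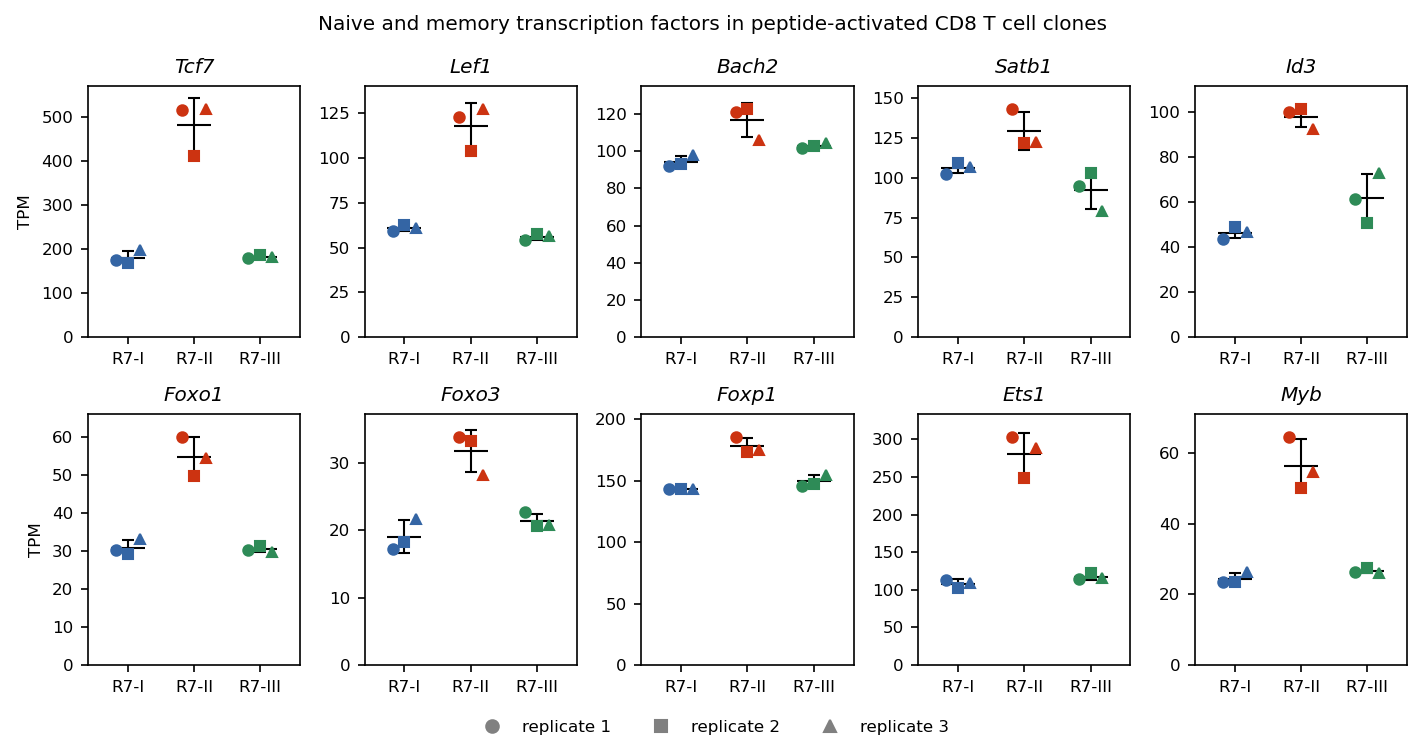
Expression of each gene in TPM (vertical axis, starting at 0) in the 3 libraries of R7-I (blue), R7-II (red) and R7-III (green), with the mean and standard deviation over 3 libraries as a black bar; circles, squares and triangles are replicates 1, 2 and 3. All R7-II libraries lie above the other 6 in every panel, by a wide gap for Tcf7 (411 TPM at the lowest in R7-II, 198 TPM at the highest elsewhere) and by a narrow one for Bach2 (106 against 104 TPM).

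Tcf7, on chromosome 11 of mm10 from 52246527 to 52283383, was the most abundant of the 10 genes in every clone. It was at 174, 168 and 198 TPM in the R7-I libraries, at 514, 411 and 518 TPM in R7-II and at 180, 185 and 183 TPM in R7-III. The R7-II libraries thus stood apart, while those of R7-I and R7-III overlapped. On the log2(TPM + 1) scale, on which all fold changes here are given, R7-II exceeded R7-I by 1.41 (standard error 0.0841, adjusted p = 2.88e-07 from limma) and R7-III by 1.38 (adjusted p = 3.26e-07). The lesser of these fold changes exceeded the lesser one of 98.0% of all genes tested.

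Lef1 lies on chromosome 3 from 131110297 to 131224357. Its level was 59.0, 62.6 and 61.0 TPM in R7-I, at 123, 104 and 128 TPM in R7-II and 54.2, 57.7 and 56.6 TPM in R7-III. The 3 clones did not overlap, with R7-II highest and R7-III lowest. R7-II exceeded R7-I by 0.94 (standard error 0.0662, adjusted p = 8.60e-07 from limma) and R7-III by 1.05 (adjusted p = 3.96e-07). The difference between R7-III and R7-I, -0.11 with a 95% interval from -0.26 to 0.03, did not pass. Within a library the ratio of Lef1 to Tcf7, which no scaling of libraries can change, was between 0.239 and 0.253 in R7-II, between 0.308 and 0.373 in R7-I and between 0.302 and 0.311 in R7-III. The balance was thus shifted further towards Tcf7 in each R7-II library than in any other library.

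Ets1, which encodes an ETS-family factor needed for normal T cell homeostasis, lies on chromosome 9 from 32636241 to 32757820. It measured 113, 102 and 109 TPM in R7-I, at 304, 249 and 289 TPM in R7-II and 114, 122 and 115 TPM in R7-III. No libraries of different clones overlapped, and R7-II was more than 2-fold above both others. R7-II lay 1.36 above R7-I (standard error 0.0664, adjusted p = 8.72e-08 from limma) and 1.25 above R7-III (adjusted p = 1.60e-07). Ets1 rose to second place among the 10 genes in R7-II, above Foxp1, which stood above Ets1 in the other clones without overlap of their libraries.

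Myb encodes c-Myb, a regulator of progenitor and memory T cells, and lies on chromosome 10 from 21124930 to 21160984. The R7-I libraries held 23.4, 23.5 and 26.4 TPM, the R7-II libraries 64.6, 50.0 and 54.6 TPM and the R7-III libraries 26.3, 27.5 and 26.1 TPM. R7-II was the only clone whose libraries stood apart, since R7-I and R7-III overlapped. The clone exceeded R7-I by 1.17 (standard error 0.0829, adjusted p = 8.84e-07 from limma) and R7-III by 1.05 (adjusted p = 1.85e-06). Tcf7, Ets1 and Myb were the 3 genes more than 2-fold higher in R7-II in both comparisons, a size reached by 4.28% of all genes tested.

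Id3, an inhibitor that lacks a DNA-binding region of its own and binds E proteins, lies on chromosome 4 from 136143822 to 136145392. It was at 43.8, 49.0 and 46.7 TPM in R7-I, at 100, 101 and 92.6 TPM in R7-II and 61.3, 50.9 and 72.8 TPM in R7-III. The clones did not overlap, and R7-III was both intermediate and the most variable, with a coefficient of variation of 17.8% against 4.85% in R7-II. R7-II exceeded R7-I by 1.06 (standard error 0.103, adjusted p = 7.30e-06 from limma) and R7-III by 0.67 (adjusted p = 1.94e-04). R7-III in turn lay 0.39 above R7-I (95% interval 0.16 to 0.61), a difference that did not pass (adjusted p = 0.0252 from limma). Without R7-III replicate 2, the lowest of its libraries, it was 0.52 and passed (adjusted p = 0.00321 from limma, with a range from 0.00321 to 0.0969 over the alternatives).

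The forkhead genes differed in the size of their change. Foxo1, on chromosome 3 from 52268337 to 52350109, was at 30.2, 29.3 and 33.1 TPM in R7-I, at 60.2, 49.7 and 54.6 TPM in R7-II and 30.2, 31.3 and 29.8 TPM in R7-III. R7-I and R7-III overlapped and R7-II was apart from both, by 0.81 (standard error 0.0681, adjusted p = 2.91e-06 from limma) and 0.82 (adjusted p = 2.48e-06). Foxo3, on chromosome 10 from 42181845 to 42276695, was the lowest of the 10 genes in every clone, at 17.2, 18.3 and 21.8 TPM in R7-I, at 34.0, 33.3 and 28.2 TPM in R7-II and 22.7, 20.7 and 20.8 TPM in R7-III. Again only R7-II was apart, by 0.71 from R7-I (standard error 0.0917, adjusted p = 5.57e-05 from limma) and by 0.55 from R7-III (adjusted p = 3.60e-04). The ratio of Foxo1 to Foxo3 within a library did not set R7-II apart, with 1.49 to 1.93 in R7-II, 1.52 to 1.76 in R7-I and 1.33 to 1.51 in R7-III.

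Foxp1, on chromosome 6 from 98925342 to 99522746, was at 143, 144 and 143 TPM in R7-I, at 186, 173 and 175 TPM in R7-II and 146, 147 and 155 TPM in R7-III. Its R7-I libraries had a coefficient of variation of 0.117%, against 3.88% in R7-II and 3.27% in R7-III, and no R7-II library overlapped with another clone. R7-II exceeded R7-I by 0.31 (standard error 0.0351, adjusted p = 2.25e-05 from limma) and R7-III by 0.25 (adjusted p = 1.07e-04). After median-of-ratios scaling these became 0.12 in both comparisons and passed (adjusted p = 0.00214 and 0.00291 from limma, where the alternatives ranged from 1.17e-05 to 0.00214 and from 2.21e-05 to 0.00291). The lesser of its fold changes exceeded the lesser one of 67.0% of all genes tested.

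Bach2 and Satb1 each missed the threshold in 1 comparison of R7-II. Bach2, on chromosome 4 from 32238413 to 32586109, was at 92.2, 92.9 and 97.9 TPM in R7-I, at 121, 123 and 106 TPM in R7-II and 102, 103 and 104 TPM in R7-III. The libraries were ordered R7-I, R7-III, R7-II without overlap, although R7-II replicate 3 was only just above R7-III. In R7-II, Bach2 exceeded its R7-I level by 0.30 (standard error 0.0518, adjusted p = 4.29e-04 from limma), and this call was lost after median-of-ratios scaling (0.11, adjusted p = 0.0835, in a range from 2.50e-05 to 0.0835 over the alternatives). Against R7-III the log2 fold change was 0.18 (95% interval 0.06 to 0.29, adjusted p = 0.0116 from limma). It passed without R7-II replicate 3 (0.24, adjusted p = 3.67e-04, in a range from 3.67e-04 to 0.497 over the alternatives).

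Satb1, which encodes an organiser of chromatin loops, lies on chromosome 17 from 51736187 to 51833290. It was at 102, 109 and 107 TPM in R7-I, at 143, 122 and 123 TPM in R7-II and 95.1, 103 and 79.3 TPM in R7-III. Replicate 1 of R7-II and replicate 3 of R7-III lay away from the others of their clones. R7-II exceeded R7-III by 0.48 (standard error 0.0881, adjusted p = 6.74e-04 from limma). Against R7-I it was 0.28 (95% interval 0.08 to 0.47), which did not pass (adjusted p = 0.0159 from limma). That value passed without R7-III replicate 3 (adjusted p = 0.00312) or R7-III replicate 2 (adjusted p = 0.00898), which leave both clones compared untouched and change only the shared estimate of the spread, and over the alternatives its adjusted p lay between 0.00312 and 0.375.

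**Figure D2:**
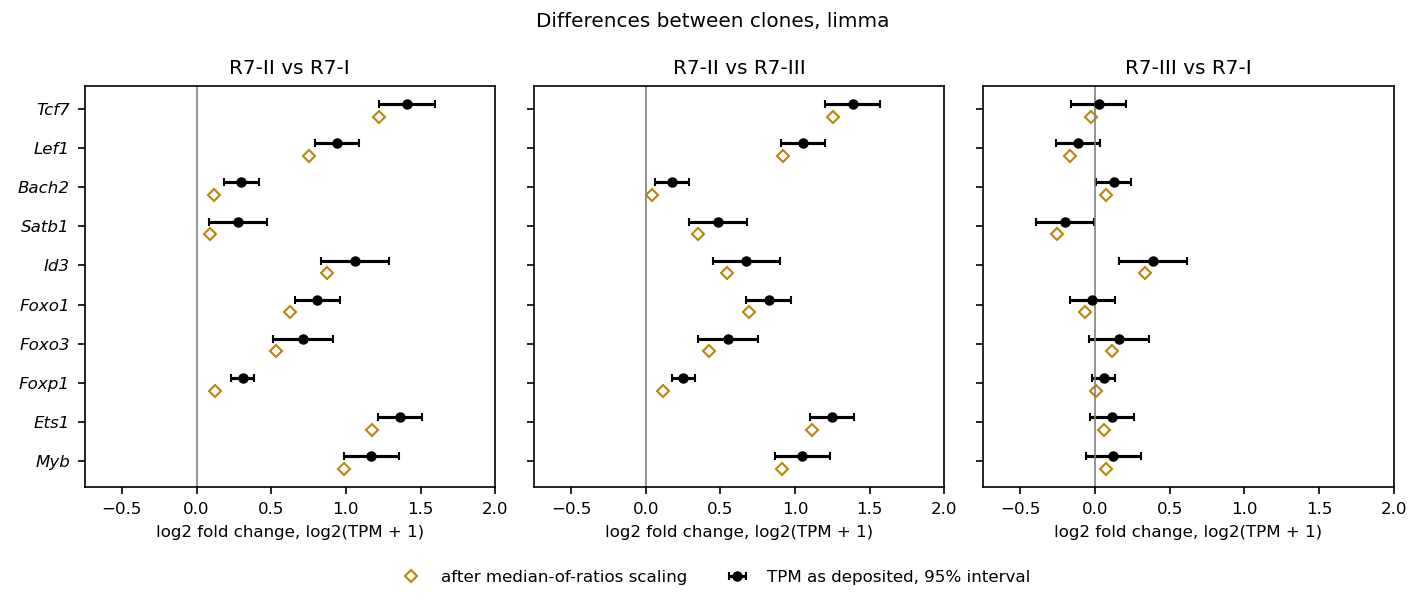
Log2 fold change on the log2(TPM + 1) scale (horizontal axis) of each gene in the 3 comparisons, with the 95% interval from limma (black, 9 libraries in 1 fit); open diamonds give the value after median-of-ratios scaling, which has no interval drawn. In both comparisons of R7-II all 10 black points lie above 0, from 0.28 (Satb1) to 1.41 (Tcf7) against R7-I, while those of R7-III against R7-I lie between -0.20 (Satb1) and 0.39 (Id3).

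R7-III and R7-I, the clones of intermediate and highest affinity, are the third pair. With limma 0 of 10 passed the adjusted p of 0.01, against 8.41% of all genes tested (6.96% higher and 1.45% lower in R7-III, or 4.86% and 3.72% after median-of-ratios scaling), and 3 of 10 (Id3, Bach2 and Satb1) had an unadjusted p under 0.05. The 95% intervals still allowed differences of up to 0.61 for Id3 and -0.40 for Satb1, and that of Tcf7 ran from -0.16 to 0.21. Libraries of R7-III and R7-I did not overlap for 5 genes, with Bach2, Id3, Foxp1 and Ets1 higher and Lef1 lower in R7-III, where 41.9% of all genes tested did not overlap. This holds for TPM as deposited, and the count was not repeated after median-of-ratios scaling, which can change whether libraries overlap. The spread between replicates, taken as the coefficient of variation, was widest in R7-II for 7 of 10 genes, with 13.2% for Myb and 12.6% for Tcf7 in R7-II.

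The order of levels from high to low was Tcf7, Foxp1, Ets1, Satb1, Bach2, Lef1, Id3, Foxo1, Myb and Foxo3 in R7-I. TPM is corrected for transcript length, so these levels can be set side by side. In R7-I only Ets1 and Satb1 overlapped as neighbours in this order. In R7-II the order was Tcf7, Ets1, Foxp1, Satb1, Lef1, Bach2, Id3, Myb, Foxo1 and Foxo3, and Satb1 overlapped with Lef1, Lef1 with Bach2, and Myb with Foxo1. In R7-III, Bach2 came before Satb1 and Id3 before Lef1, and both of these pairs overlapped.

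The deposited values are per gene and do not tell promoters or isoforms apart, and promoter sequence is shown only as context for 2 of the genes. RefSeq promoter entries of GRCm38.p6 (the build of mm10, from strain C57BL/6J and not BALB/c) matched 9 of 10 genes, Ets1 being the exception. Myb is shown for its large difference (more than 2-fold in both comparisons), and Bach2 for its small one. Each line holds the 250 bases before the annotated start, on the strand of the gene, and for Bach2 the start lies inside the gene. Capitals mark matches to any of the letters searched on both strands.
Myb, chr10:21160985-21161234, minus strand: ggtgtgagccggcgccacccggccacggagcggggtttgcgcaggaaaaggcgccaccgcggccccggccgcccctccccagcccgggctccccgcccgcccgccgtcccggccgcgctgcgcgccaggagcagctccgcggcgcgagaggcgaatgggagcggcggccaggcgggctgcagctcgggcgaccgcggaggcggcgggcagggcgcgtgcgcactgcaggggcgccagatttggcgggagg
Bach2, chr4:32417185-32417434, plus strand: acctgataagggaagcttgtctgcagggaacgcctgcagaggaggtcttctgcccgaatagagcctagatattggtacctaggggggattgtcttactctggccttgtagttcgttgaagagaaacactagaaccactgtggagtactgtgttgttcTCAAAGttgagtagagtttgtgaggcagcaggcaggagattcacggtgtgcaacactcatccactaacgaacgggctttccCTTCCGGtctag

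The letters searched were CCGGAAG (bound by ETS factors), CTTTGA (TCF and LEF), GTAAACA (FOXO), TAACNG (MYB) and CAGCTG (an E-box, bound by E proteins), none of which overlap in the windows printed. The Bach2 window held the ETS and the TCF and LEF letters, both on the reverse strand, and the Myb window held none. Over the most upstream window of every gene in the table, 7.07% of 27025 windows held the ETS letters, 14.1% the TCF and LEF letters, 3.06% the FOXO letters, 19.8% the MYB letters and 12.7% the E-box. Among the 9 windows of the genes described here the counts were 1, 1, 0, 3 and 1 in the same order. The E-box was in the window of Tcf7, which lies inside the gene. The MYB letters were in the windows of Foxo1, Id3 and Lef1, which overlap annotated exons. A match describes the sequence and is not a measured binding site.

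Relatives of these factors moved in both directions. Of 23 relatives, 18 were tested, and 10 were higher and 3 lower when R7-II was set against R7-I, with a median log2 fold change of 0.38. The counts were also 10 higher and 3 lower against R7-III, with a median of 0.29. The higher share of 55.6% stood against 40.6% and 35.6% of all genes tested, and the lower share of 16.7% was near the 15.5% and 18% of all genes tested. Foxp3, called higher against R7-III only, and Tcf7l1, called in neither comparison, passed the filter only through R7-II. They were at no more than 0.56 and 0.78 TPM elsewhere, so the filter favoured higher values in R7-II for both. Id2, the relative of Id3 that supports effector cells, was higher together with it, with 55.3 ± 1.62 TPM for R7-II, 25.6 ± 1.84 for R7-I and 22.9 ± 0.509 for R7-III (mean ± SD over 3 libraries of a clone, as in the values that follow). It differed by 1.08 from R7-I and by 1.24 from R7-III on the log2 scale (adjusted p = 9.34e-08 and 6.59e-08 from limma). The ratio of Id3 to Id2 was therefore 1.73 to 1.81 in R7-II, within the 1.58 to 1.95 of R7-I, and highest in R7-III at 2.29 to 3.16.

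Bach1, a relative of Bach2 that answers to heme, was at 12.4 ± 1.72 TPM in R7-II, against 4.84 ± 0.0872 in R7-I and 4.26 ± 0.445 in R7-III. It differed by 1.19 on the log2 scale from R7-I (adjusted p = 3.08e-06 from limma), and the ratio of Bach2 to Bach1 fell to between 8.05 and 11.7 in R7-II, where the other libraries ranged from 18.8 to 25.6. Ets2 went the other way than Ets1, at 26.8 ± 0.920 TPM in R7-II, against 35.9 ± 0.743 in R7-I and 30.7 ± 1.47 in R7-III, with log2 fold changes of -0.41 and -0.19 (adjusted p = 2.67e-05 and 0.00488 from limma). Mybl2, a cell cycle relative of Myb, was lowest in R7-II at 3.19 ± 0.593 TPM, with 6.94 ± 1.34 in R7-I and 16.9 ± 1.61 in R7-III (adjusted p = 1.92e-04 and 5.69e-07 from limma for both comparisons of R7-II). The ratio of Myb to Mybl2 was 14.3 to 25.7 in R7-II, 2.98 to 4.34 in R7-I and 1.39 to 1.70 in R7-III.

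Foxo4 was higher along with Foxo1 and Foxo3, at 17.6 ± 2.35 TPM in R7-II, against 8.66 ± 0.672 in R7-I and 8.99 ± 0.625 in R7-III (adjusted p = 1.12e-05 and 1.75e-05 from limma). Foxp4 was at 80.9 ± 5.06, 79.4 ± 3.78 and 78.9 ± 1.19 TPM in that order of clones and did not pass (log2 fold change 0.03 from R7-I, adjusted p = 0.664 from limma), while after median-of-ratios scaling it was lower in R7-II by 0.16 (adjusted p = 0.00436). The ratio of Foxp1 to Foxp4 was 2.12 to 2.30 in R7-II and 1.71 to 1.97 in the other libraries. Elf1, another ETS factor, was at 94.3 ± 6.18 TPM in R7-II, against 56.9 ± 1.76 in R7-I and 60.6 ± 1.45 in R7-III (adjusted p = 6.66e-07 and 1.54e-06 from limma).

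**Figure D3:**
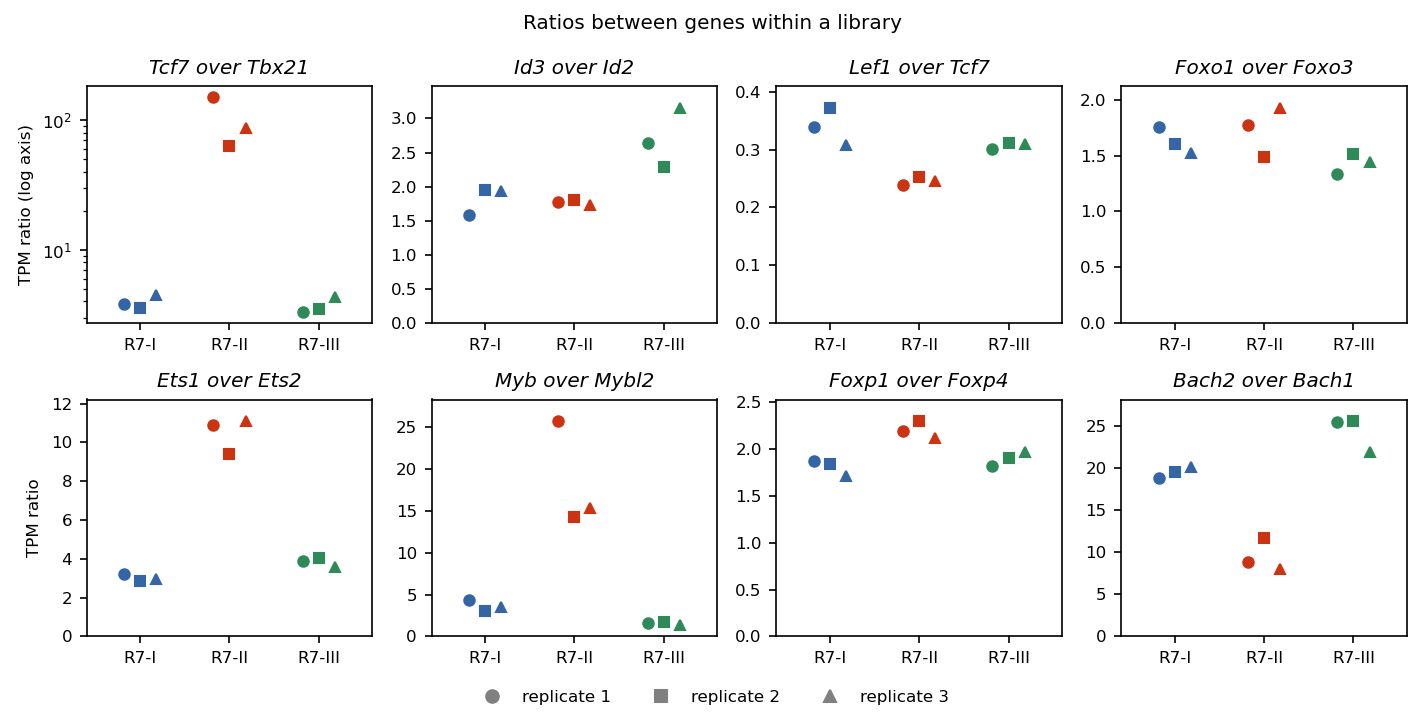
TPM ratio of a gene to a relative or counterpart within each library (vertical axis from 0, except for the ratio of Tcf7 to Tbx21, which has a log axis), by clone and replicate as in the plot of expression. The ratio of Tcf7 to Tbx21 was 63.5 to 152 in R7-II and 3.31 to 4.48 in the other libraries, and that of Ets1 to Ets2 was 9.41 to 11.1 against 2.88 to 4.03, while that of Id3 to Id2 in R7-II lay within the range of R7-I.

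Partners of TCF-1, LEF-1 and Id3 had a smaller median than the factors themselves. Of 11 genes tested, 8 were higher and 1 lower with R7-II set against R7-I (median log2 fold change 0.31), and 5 were higher and 0 lower with R7-III in its place (median 0.14, with 1 lower at an unadjusted p under 0.05 in limma). The shares called higher, 72.7% and 45.5%, stood against 40.6% and 35.6% of all genes tested, and the second median was near the 0.12 of all genes tested. Tle2, called higher in both comparisons, passed the filter only through R7-II, at no more than 0.5 TPM elsewhere. Its part of the counts was therefore favoured by the filter. After median-of-ratios scaling the counts against R7-I became 4 higher and 2 lower, where 36.4% higher stood against 25.2% of all genes tested. Aes, which encodes a short Groucho protein, was at 136.5 ± 6.79 TPM in R7-II, against 75.7 ± 2.47 in R7-I and 92.6 ± 5.26 in R7-III (adjusted p = 2.72e-07 and 4.58e-06 from limma). Ctnnb1, encoding beta-catenin, was at 198 ± 8.04 TPM in R7-II and at 163 ± 6.63 and 161 ± 4.04 TPM in the others (adjusted p = 1.19e-04 and 7.73e-05), and the first of these calls was lost after median-of-ratios scaling (adjusted p = 0.0276).

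Surface and survival genes of naive and memory cells moved with the transcription factors. Of 18 tested, 16 passed as higher against R7-I and 17 against R7-III. With limma 0 were lower in either, also at an unadjusted p under 0.05. The medians were 1.03 and 1.21, against 0.17 and 0.12 over all genes tested. Of all genes tested, 40.6% and 35.6% were higher, and 15.5% and 18% were lower. After median-of-ratios scaling 15 and 16 of the 18 were higher, where 25.2% and 25.0% of all genes tested were higher. Nsg2 and Cxcr5 passed the filter only through R7-II, at no more than 0.46 and 0.98 TPM elsewhere. Before the scaling Nsg2 was called higher in both comparisons and Cxcr5 against R7-III only. Their part of the counts was therefore favoured by the filter. Slamf6, a surface marker of TCF-1-expressing CD8 T cells, was at 27.2 ± 6.33 TPM in R7-II, against 4.51 ± 0.886 in R7-I and 3.74 ± 0.290 in R7-III, which gave log2 fold changes of 2.34 and 2.55 (adjusted p = 8.55e-07 and 4.72e-07 from limma). Ccr7, the lymph node homing receptor, was abundant in every clone, with 1172 ± 68.4 TPM in R7-II against 801 ± 38.9 in R7-I and 684 ± 62.6 in R7-III. Cd27, a costimulatory receptor, was at 419.5 ± 20.2, 296 ± 7.32 and 295 ± 5.08 TPM in that order of clones.

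Transcription factors of effector cells went the other way. Of 13 tested, 0 were higher and 9 lower against R7-I, and 0 were higher and 10 lower against R7-III, where 15.5% and 18% of all genes tested were lower. In limma 0 and 1 of them were higher at an unadjusted p under 0.05. The count of lower genes against R7-III was 6 without R7-III replicate 2, and also 6 with only the libraries of both clones in the fit, and 1 gene was called higher without R7-II replicate 2. The medians were -0.65 and -0.52. Batf3, called lower in both comparisons, passed the filter only through R7-I and R7-III, with at most 0.33 TPM in R7-II. Its part of the counts was therefore favoured by the filter. Tbx21, encoding T-bet, was at 5.25 ± 1.65 TPM in R7-II, against 45.6 ± 1.45 in R7-I and 49.7 ± 6.66 in R7-III (adjusted p = 2.31e-07 and 2.01e-07 from limma).

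Irf8, an interferon regulatory factor induced in effectors, was at 65.3 ± 12.9 TPM in R7-II, 182 ± 10.6 in R7-I and 189.9 ± 19.4 in R7-III. Bhlhe40 was at 61.2 ± 5.69, 110.3 ± 6.01 and 97.9 ± 5.19 TPM in that order of clones. Runx3, a factor of the CD8 lineage itself, was at 43.9 ± 1.45, 43.9 ± 1.49 and 45.9 ± 2.29 TPM and did not pass (adjusted p = 0.991 and 0.274 from limma for both comparisons of R7-II), while after median-of-ratios scaling it was lower in R7-II by 0.18 and 0.19 (adjusted p = 0.00765 and 0.00605). Myc and Irf4, the most abundant genes of this list, fell by 0.25 and 0.31 on the log2 scale from R7-I to R7-II (adjusted p = 8.84e-05 and 2.97e-04 from limma). The ratio of Tcf7 to Tbx21 within a library, at 63.5 or more in R7-II, was at most 4.48 in the other clones.

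**Figure D4:**
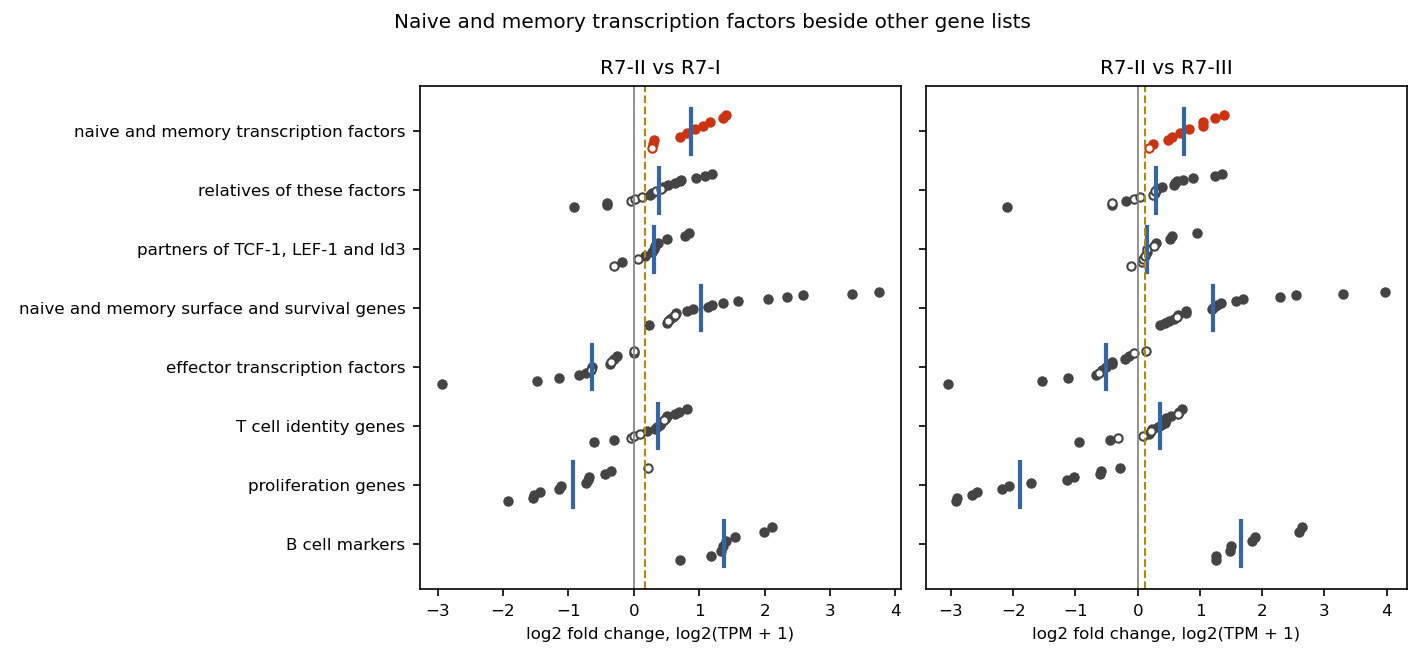
Log2 fold change on the log2(TPM + 1) scale (horizontal axis) of each tested gene of 8 lists in R7-II against R7-I (left) and against R7-III (right); filled points passed the adjusted p of 0.01 from limma, blue bars are list medians and the dashed line is the median of all genes tested. The naive and memory transcription factors (red) have medians of 0.87 and 0.75, on the same side as surface and survival genes of naive cells and B cell markers and opposite to effector transcription factors and proliferation genes.

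Other features of the libraries moved together with these genes. Proliferation genes were lower in R7-II, 11 of 12 against R7-I and 12 of 12 against R7-III, and 10 of 12 passed as higher in R7-III compared with R7-I. Of all genes tested, 15.5% and 18% were lower in R7-II, and 6.96% were higher in R7-III than in R7-I. After median-of-ratios scaling the counts were 11, 12 and 7 of 12 in the same order. The shares of all genes tested were then 29.4%, 28.2% and 4.86%. B cell markers, which the sort should remove, were higher in R7-II for 8 of 8 tested in both comparisons, with medians of 1.39 and 1.66. The shares of all genes tested called higher were 40.6% and 35.6%. Among these markers Cd22, Blk and Fcrla passed the filter only through R7-II, at no more than 0.93 TPM elsewhere. Their part of the count was therefore favoured by the filter. With a minimum of 1 TPM in every library, which tests fewer markers, 2 were higher in each comparison. Summed over the 9 markers listed in the table they came to 36.5 to 75.3 TPM in R7-II, against 8.68 to 15.8 in R7-I and 5.27 to 7.94 in R7-III, with every marker above 0 in every library. MHC class II genes summed to 116 to 190 TPM in R7-II, against 33.3 to 51.8 in R7-I and 25.0 to 29.5 in R7-III. They passed as higher for 8 of 8 in both comparisons (6 of 8 against R7-I after median-of-ratios scaling). Of these, Ciita passed the filter only through R7-II, at no more than 0.38 TPM elsewhere. With a minimum of 1 TPM in every library, 5 class II genes were higher in each comparison.

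B cells also express several of the genes described, among them Bach2, Foxp1, Ets1 and Foxo1. R7-II replicate 2 had the lowest B cell marker sum of its clone and also the lowest TPM of its clone for 7 of 10 genes (5 of 10 after median-of-ratios scaling). R7-II replicate 1 had the highest sum and was highest for 6 of 10 (5 of 10 after the scaling). R7-II replicate 3, with the sum in between, was lowest for 3 of 10, and after the scaling for 5 of 10, as often as replicate 2. Myeloid markers were higher for 8 and 9 of 11 tested against R7-I and R7-III, and 7 and 6 after median-of-ratios scaling. The shares of all genes tested called higher were 40.6% and 35.6%, or 25.2% and 25.0% after the scaling. Csf1r, Itgam, Emr1, Fcer1g, S100a8, S100a9 and Cd14 passed the filter only through R7-II, which favoured calls in that direction. The markers summed to 107 to 171 TPM in R7-II and 67.0 to 75.7 TPM elsewhere. Most of the sum outside R7-II was Cst3, at 59.8 to 70.5 TPM there and 76.0 to 82.2 TPM in R7-II. The count of these markers against R7-I was 4 without R7-I replicate 1 and 5 without R7-I replicate 3 or R7-II replicate 3. That against R7-III was 5 without R7-III replicate 1. With a minimum of 1 TPM in every library it was 2 in both comparisons, and with quantile normalization 2 against R7-I.

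T cell identity genes, among 16 tested, were higher for 10 (62.5%) and lower for 2 (12.5%) in both comparisons of R7-II. Of all genes tested, 40.6% and 35.6% were higher, and 15.5% and 18% were lower. After median-of-ratios scaling 8 of the 16 were higher in both comparisons, and 2 and 3 were lower. The shares of all genes tested were then 25.2% and 25.0% higher, and 29.4% and 28.2% lower. The summed level of the T cell identity genes was 5040 to 5133 TPM in R7-II, against 4191 to 4257 in R7-I and 4538 to 4646 in R7-III. Cd8b1, a chain of the CD8 coreceptor, was at 518 ± 31.9 TPM in R7-II, 319.8 ± 8.14 in R7-I and 326 ± 5.23 in R7-III. Cd5, whose protein level follows self-reactivity, was at 360.3 ± 59.9, 545 ± 16.8 and 684 ± 9.97 TPM in that order of clones. CD4 T cell markers summed to at most 8.01 TPM and NK cell markers to at most 0.67 TPM in any library, with Klra8 at 0 in all. In such sorted bulk samples more cells of a type and more RNA per cell cannot be told apart, and the part of B cells, myeloid cells and of the share of cycling cells in the differences was not tested.

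The genes with the most similar pattern were found by the root mean square difference between centred log2(TPM + 1) values over the 9 libraries, as a description with no test. Closest to Tcf7 were Gabbr1, Rnf167 and Txnip, at differences of 0.0501, 0.0621 and 0.0709. Txnip, which encodes a brake on glucose uptake, was at 121 ± 15.6 TPM in R7-II, against 40.5 ± 2.95 in R7-I and 42.1 ± 0.550 in R7-III. Utrn, Cyth1 and Akap8l were closest to Lef1 (0.0439 to 0.0454), Ctsd, Vipr1 and Pea15a to Ets1 (0.0460 to 0.0649), and Ube2h, Fam168a and Hsdl2 to Myb (0.0520 to 0.0543). Vipr1 was low, with means of 0.677 TPM in R7-I, 3.26 in R7-II and 0.727 in R7-III. At such levels the added 1 TPM narrows differences on this scale.

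Kdsr, Kansl1 and Sp3 were closest to Foxo1 (0.0313 to 0.0395), Ubald1, Arap2 and Ccng1 to Foxo3 (0.0587 to 0.0652), and Vav1, Akap11 and Supt5 to Foxp1 (0.0218 to 0.0231). The genes closest to Bach2 were Pde6d, Clec16a and Ube2r2 (0.0317 to 0.0379), and those closest to Satb1 were Dse, Csrnp1 and 5430405H02Rik (0.0656 to 0.0801). Id3 had the least similar neighbours, Rcan3, Cnksr3 and 2810408A11Rik, at 0.109 to 0.124. Of these, 2810408A11Rik was also low, with means of 0.383 TPM in R7-I, 1.54 in R7-II and 0.54 in R7-III. None of the 10 genes was among the 3 closest of another.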

How the data were processed

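Poly(A) RNA of sorted, peptide-activated CD8 T cells gave 9 libraries. From single-end reads without strand information the authors estimated gene levels with RSEM (version 1.2.11 per the submitters' processing notes) against RefSeq genes on mm10, and the deposited table holds TPM per gene. These values keep no depth, so counting error is unknown and low genes are less certain than the libraries' spread shows. RSEM was also used for the alignment, and the program it called for this was not stated in the sources used here. The authors' own test used DESeq2 on counts, which were not used here.

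All columns were matched to samples by name. Genes with a maximum TPM above 1 were kept (11330 of 24060), and log2(TPM + 1) was fitted with limma 3.58.1 in R 4.3.3 (trend, 9 libraries in 1 fit, Benjamini-Hochberg over all genes tested, threshold 0.01), after a check on simulated data. Pandas 2.3.3 in Python 3.11.15 was used for the other steps. The genes described and all lists were chosen with earlier results of these data known. Genes named beside them came from the up to 4 of each list with the largest change past the threshold in both comparisons of R7-II, its 2 most abundant, and the 3 closest by pattern to each gene described. Ets2, Runx3 and Klra8 lie outside this rule and were chosen after their values were seen. Genes were also named, outside this rule, where they passed the filter only through some of the clones. Positions are those of RefSeq on GRCm38. A planned comparison of protein sequences was not made, as no protein table was used here. Each result was recomputed with a pseudocount of 0.1 or 5, with no filter or a minimum of 1 TPM in every library, with median-of-ratios scaling or quantile normalization, without the trend, at a threshold of 0.05, with the fit restricted to the compared clones, with a block for the replicate number, and with every library omitted once.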

Additional observations from a re-analysis of the deposited data

How the results depend on the processing

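The counts of naive and memory transcription factors called higher in R7-II stayed within 8 to 10 for the comparison with R7-I and 9 to 10 for that with R7-III under every alternative run, and none was called lower. Over all 10 genes, 3 comparisons and 18 alternatives, 534 of 540 values kept their side of the threshold, 1 lost its call (Bach2 against R7-I after median-of-ratios scaling), 5 gained one, and none that was called changed sign; the cause was not tested. For R7-III against R7-I the count called higher was 1 in place of 0 at a threshold of 0.05, and 0 to 1 with each library left out in turn (Id3, without R7-III replicate 2). Over all genes tested, 953 genes passed for R7-III against R7-I, and this became 2142 at a threshold of 0.05 and 436 to 1120 with each library left out in turn: 436 and 577 without R7-I replicates 1 and 2, and 496, 497 and 530 without R7-III replicates 1, 2 and 3. The counts for R7-II ranged from 5429 to 7747 for R7-I as the other clone and from 5113 to 7571 for R7-III. After median-of-ratios scaling 46.2% and 47.0% of the genes called in the comparisons of R7-II were higher in R7-II, where TPM gave 72.4% and 66.4%. The genes called in the third comparison were higher in R7-III for 56.6% in place of 82.8%.

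Correlations of same-numbered libraries' deviations from their clone means lay between -0.0449 and 0.0888. Those of libraries with different numbers lay between -0.0948 and 0.0649. With 3 libraries per clone these values cannot show whether libraries of the same number were prepared together. With the replicate number as a block, 6015, 5786 and 733 of all genes passed in place of 6358, 6077 and 953, and 9, 9 and 0 of the genes described here.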
